A study of Homo sapiens with 24 samples.

Results

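The early response of HEL cells to fedratinib was read by RNA sequencing from 2 libraries of cells treated with 500 nM fedratinib for 4 h, set against 2 libraries of cells treated with DMSO, the solvent, for 4 h. These 4 libraries were chosen by their labels from 24. HEL is an established human erythroleukaemia line whose JAK2 gene carries an activating mutation, and every group here is that same line with no other allele or agent. For comparison, the text uses fedratinib at 48 h (500 nM) with DMSO at 48 h, and momelotinib, pacritinib and ruxolitinib at 4 h, each at 500 nM, with 2 libraries a group. Values come from 1 cell line in culture, and the labels do not say whether the 2 libraries of a group came from separate cultures, so the p-values speak to the spread between libraries, and that spread may be technical.

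JAK2 is a tyrosine kinase that sits on cytokine receptors and phosphorylates STAT transcription factors, which then enter the nucleus and switch on their target genes. Among these targets are feedback inhibitors (the SOCS family and CISH), survival kinases (the PIM family), and anti-apoptotic proteins such as BCL2L1. In a line with an activated JAK2 the pathway runs without cytokine. Fedratinib is a JAK2-selective inhibitor that also binds FLT3, RET and bromodomain proteins of the BET family, and it is known for a warning on thiamine deficiency. Cells short of amino acids or under other stress translate the transcription factor ATF4, which induces genes of amino acid synthesis and uptake, and the sestrins, which restrain the growth kinase mTORC1.

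The promoters of 3 genes are shown because they carry the DNA elements by which these pathways are usually read. The GAS element (TTCNNNGAA), bound by STAT proteins, occurs 4 times in the CISH window. The CARE element (TGATGNAA), bound by ATF4, occurs once each in the windows of JDP2 and ASNS. The windows run from 250 bases before to 50 after a RefSeq start site (GRCh38.p14), 5′ to 3′ on the strand of the gene. They lie at chr3:50611725-50612024 (minus strand) for CISH, chr14:75427772-75428071 (plus strand, 1 of 3 listed for the gene) for JDP2, and chr7:97872359-97872658 (minus strand, 1 of 2 listed) for ASNS, and capitals mark the matches.
CISH: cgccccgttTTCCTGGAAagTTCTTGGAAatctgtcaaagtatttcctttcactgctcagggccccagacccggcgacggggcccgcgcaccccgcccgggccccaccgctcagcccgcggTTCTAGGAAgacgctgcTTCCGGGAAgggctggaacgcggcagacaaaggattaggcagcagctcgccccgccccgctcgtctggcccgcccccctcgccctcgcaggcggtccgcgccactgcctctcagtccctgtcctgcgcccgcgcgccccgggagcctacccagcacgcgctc
JDP2: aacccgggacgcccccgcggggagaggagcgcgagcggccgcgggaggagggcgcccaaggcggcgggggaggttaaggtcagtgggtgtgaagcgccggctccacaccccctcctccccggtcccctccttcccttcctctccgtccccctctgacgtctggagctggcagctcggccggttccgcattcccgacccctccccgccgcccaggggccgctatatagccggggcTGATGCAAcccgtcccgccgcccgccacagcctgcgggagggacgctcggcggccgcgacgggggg
ASNS: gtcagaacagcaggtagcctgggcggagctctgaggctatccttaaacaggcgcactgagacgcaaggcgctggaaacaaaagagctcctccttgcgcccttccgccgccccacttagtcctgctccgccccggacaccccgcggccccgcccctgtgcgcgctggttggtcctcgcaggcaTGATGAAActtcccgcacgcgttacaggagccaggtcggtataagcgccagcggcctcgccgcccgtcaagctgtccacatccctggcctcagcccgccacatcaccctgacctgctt

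Both elements were searched on both strands. The GAS element reads the same on either strand, and no GAS match overlapped a CARE match in the 3 windows. A GAS match was found in 7.66% of all 35116 promoter windows and a CARE match in 3.62%. Among genes with a window, 8 of 28 on the ATF4 list (28.6%) and 2.81% of all tested genes held a CARE match. Of the 4 called genes of the ATF4 list with a window, 1 held a CARE match, and the window of SESN2 held none. A CARE match was also found for 2 of 17 JAK-STAT targets (11.8%), with IL21R the 1 among the 7 called. A GAS match was found for 3 of 17 genes on the JAK-STAT target list (17.6%) and for 8.74% of all tested genes, but for 0 of the 7 JAK-STAT targets called lower with fedratinib. Over all called genes with a window, a GAS match was held by 9.46% of the 74 higher genes and 10.5% of the 124 lower ones. Counted by window in place of gene, the shares were 7.55% for the higher genes, 6.37% for the lower genes and 6.47% for all tested genes. A match is a string of letters and not a measured binding site.

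The 2 fedratinib libraries held 37789623 and 45630743 counted reads, and the 2 DMSO libraries 33039413 and 45550784. The summed levels of markers of the line were alike in all 4, while single genes varied between replicates. The summed erythroid list was at 10229 and 10105 CPM (read counts scaled to library size) with fedratinib, and 10124 and 10238 CPM with DMSO. The megakaryocyte and platelet list summed to 3410 and 3469 CPM with fedratinib, and 3415 and 3463 CPM with DMSO. Within the erythroid list, HBA1, an adult alpha globin, was at 338 and 257 CPM with fedratinib and at 314 and 325 CPM with DMSO, and HBG1, a fetal globin, at 216 and 151 CPM with fedratinib and at 183 and 188 CPM with DMSO; both have near-identical copies that may share reads. Of 11 lymphoid markers 6 were under 1 CPM in every library, CD3E among them, and the list summed to 37.3 to 41.3 CPM. Most of that sum came from CD4 (15.2 to 18.3 CPM), CD79B (9.09 to 11.1 CPM) and CD79A (4.31 to 6.65 CPM). Of 12 monocyte and neutrophil markers 10 were under 1 CPM in every library, CD14, MPO and ELANE among them. The exceptions were LYZ (35.3 to 38.8 CPM) and ITGAM (16.1 to 17.9 CPM). Of 13 stromal, epithelial and endothelial markers 8 were under 1 CPM, and DCN was at 0, whereas PECAM1, which megakaryocytic cells also express, was between 164 and 172 CPM. In bulk RNA, fewer cells of a type and less RNA per cell cannot be told apart.

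Fedratinib at 500 nM changed few genes by 4 h, and most of them by little. Of 16076 tested genes, 255 passed edgeR's quasi-likelihood test at an adjusted p under 0.05 (1.59%). Of these, 99 were higher with fedratinib (0.616% of tested genes) and 156 were lower (0.97%). The median size of the change among the 255 was 0.30 on the log2 scale. A change of at least 2-fold was seen in 6 of the higher genes and 1 of the lower ones, and at least 1.5-fold in 15 and 11. The 1 lower gene past 2-fold was EPHA1, an ephrin receptor, at 2.603 and 2.321 CPM with fedratinib and 5.618 and 4.587 CPM with DMSO, named here after its values were seen. The fedratinib and DMSO libraries did not overlap for any of the 255, but this was common, since they also did not overlap for 3592 tested genes with fedratinib higher and 3667 with fedratinib lower. Genes near the threshold were RUNX3 (-0.41, adjusted p = 0.0493), a transcription factor, just inside, and SLC40A1 (0.17, adjusted p = 0.0506), the iron exporter, just outside.

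The number of calls rested heavily on single libraries. It was 39 without DMSO replicate 2, 61 without fedratinib replicate 1, 63 without fedratinib replicate 2 and 154 without DMSO replicate 1. Leaving out 1 of 4 libraries also leaves fewer data to test with. Of the 255 genes, 26 were called in every one of these 4 fits, 21 of them lower and 5 higher. The 5 higher were SESN3, SESN2, RPPH1 (the RNA subunit of RNase P) and the mitochondrial ribosomal RNAs MT-RNR1 and MT-RNR2. The largest decreases among the 21 were in AKAP12 (-0.83 ± 0.12, log2 fold change ± SE), a scaffold for protein kinase A, BCL3 (-0.79 ± 0.13), WNT11 (-0.78 ± 0.13), a Wnt ligand, and IL21R (-0.62 ± 0.10).

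**Figure D1:**
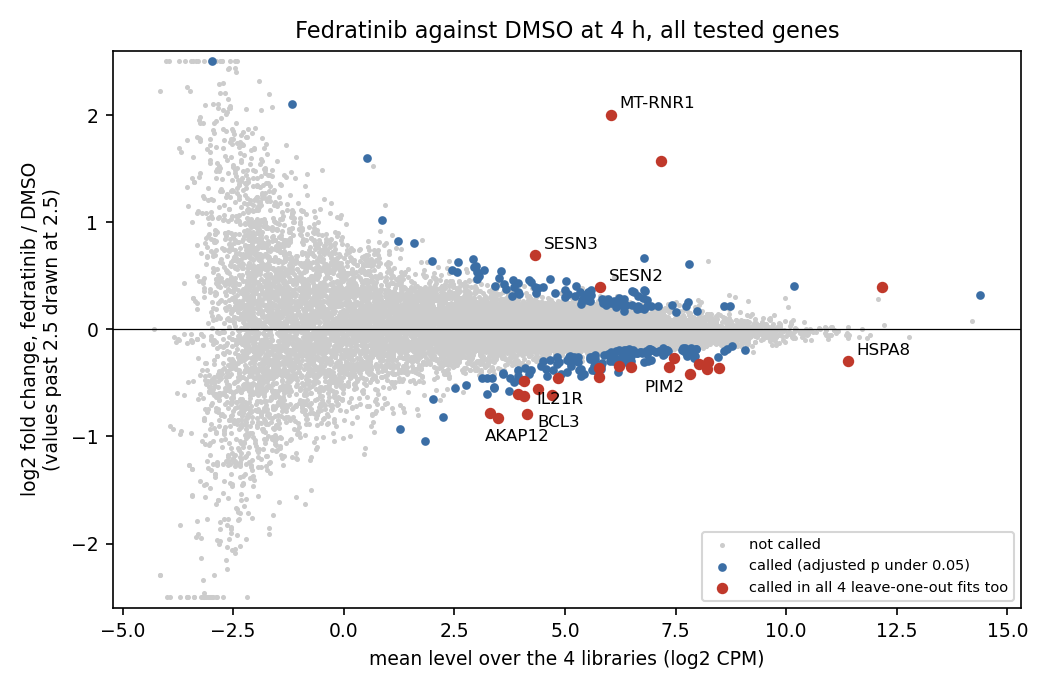
Each point is 1 of 16076 tested genes, with its mean level over the 4 libraries in log2 CPM on the horizontal axis and its log2 fold change, fedratinib over DMSO at 4 h, on the vertical axis (values past 2.5 are drawn at 2.5). Blue points are the called genes and red points the 26 that were also called with each library left out, most of them between 0.26 and 0.83 below the line at 0.

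AKAP12 (ENSG00000131016, chromosome 6 from 151239999 to 151358557, GRCh38) was at 8.18 and 8.49 CPM with fedratinib and at 16.2 and 13.6 CPM with DMSO. WNT11 was at 7.01 and 7.99 CPM with fedratinib and at 12.8 and 13.1 CPM with DMSO. Each fedratinib library lay below each DMSO library, and the fitted ratios to DMSO were 0.562 for AKAP12 and 0.581 for WNT11. Other genes of the 26, named after their values were seen, were expressed at far higher levels. UBASH3B, a phosphatase that restrains tyrosine kinase signalling, was at 192 and 203 CPM with fedratinib and at 264 and 263 CPM with DMSO (-0.42 ± 0.05, adjusted p = 4.14e-05 by edgeR). NR2F2, an orphan nuclear receptor, was at 268 and 273 CPM with fedratinib and at 332 and 337 CPM with DMSO (-0.31 ± 0.05). TIMP3, an inhibitor of matrix metalloproteinases, was at 314 and 317 CPM with fedratinib and at 402 and 410 CPM with DMSO (-0.36 ± 0.05). For these 3 genes the replicates of a group lay close together, and the ratios to DMSO were 0.748, 0.808 and 0.777. PPIF, the mitochondrial cyclophilin, was at 264 and 259 CPM with fedratinib and at 333 and 342 CPM with DMSO (-0.37 ± 0.05).

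**Figure D2:**
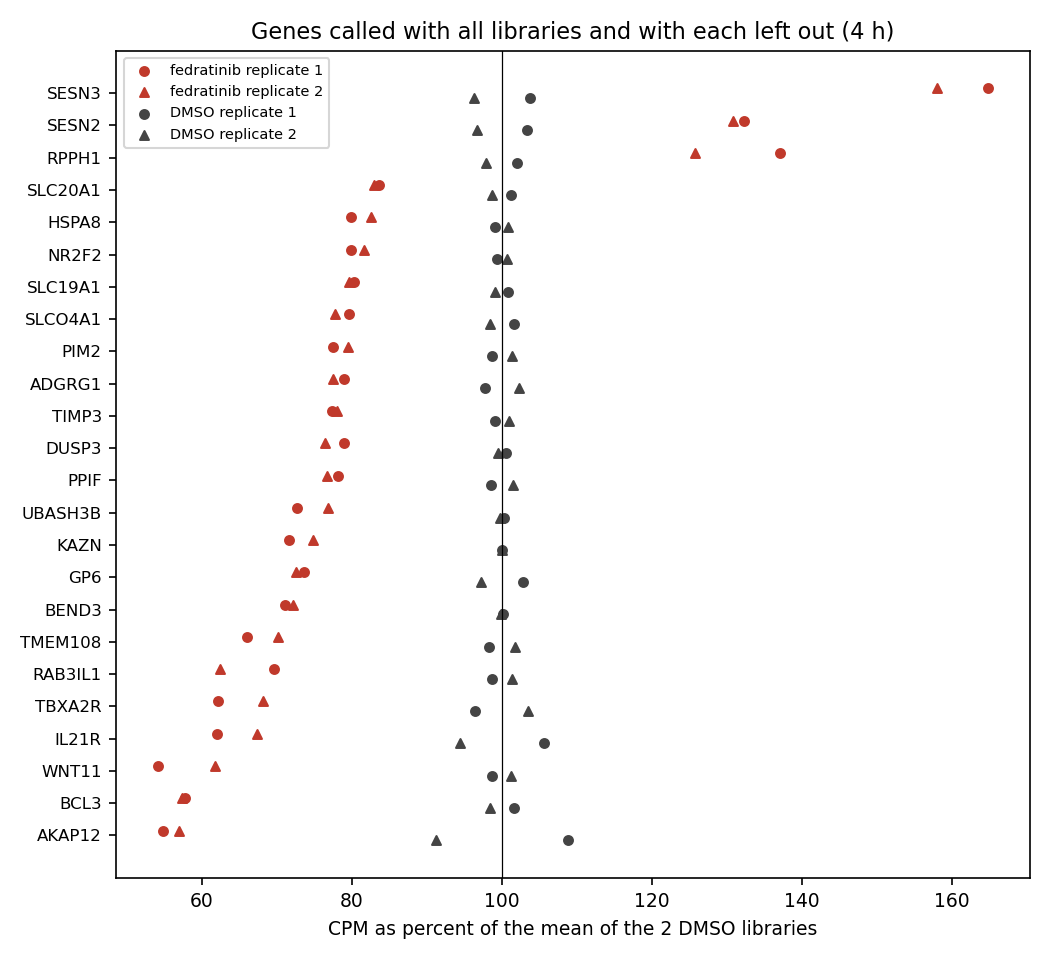
CPM of 24 of the 26 genes called with all libraries and with each left out, as a percent of the mean of the 2 DMSO libraries, on the horizontal axis; the 2 mitochondrial ribosomal RNAs, which run off this scale, are left out. Red symbols are the fedratinib libraries and dark symbols the DMSO libraries, and the red pair lies left of the dark pair for 21 genes and right of it for SESN3, SESN2 and RPPH1.

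Part of the JAK-STAT target list was lower with fedratinib. Of its 22 tested genes, 7 fell and 0 rose (31.8% lower, against 0.97% of all tested genes), and 21 of the 22 estimates lay below 0. The median log2 fold change of the list was -0.18, against 0.0025 over all tested genes. The 7 were BCL3, IL21R, SOCS1, GP6, PIM2, ID1 and BCL2L1, and BCL3, IL21R, GP6 and PIM2 kept the call with each library left out. This list was written knowing earlier results from these libraries, so its direction is not independent evidence.

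Among the regulators, BCL3 (ENSG00000069399, chromosome 19 from 44747705 to 44760044), an atypical inhibitor of NF-kB that acts as a transcriptional co-activator, was at 13.4 and 13.3 CPM with fedratinib and at 23.6 and 22.9 CPM with DMSO. These levels rest on 506 and 621 reads with fedratinib and 782 and 1052 reads with DMSO. Its adjusted p was 0.00103 by edgeR, and 0.00942 to 0.0199 over the fits with 1 library left out. PIM2 (ENSG00000102096, chromosome X from 48913182 to 48919024), a serine/threonine kinase that promotes survival, was at 144 and 147 CPM with fedratinib and at 183 and 188 CPM with DMSO (-0.35 ± 0.06, adjusted p = 0.00085). Both fedratinib libraries were below both DMSO libraries, with little spread inside either group. PIM1, its paralogue, was at 565 in both fedratinib libraries and at 628 and 632 CPM with DMSO, a difference of -0.16 (95% interval -0.26 to -0.05) that did not pass the test across all genes (adjusted p = 0.145).

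Among receptors, IL21R (ENSG00000103522, chromosome 16 from 27402162 to 27452042), the receptor for interleukin 21, was at 12.9 and 14.1 CPM with fedratinib and at 22.0 and 19.7 CPM with DMSO. IL4R, a receptor chain for interleukins 4 and 13, was at 15.9 and 15.4 CPM with fedratinib and at 21.3 and 20.5 CPM with DMSO (-0.42 ± 0.10, adjusted p = 0.035). Unlike IL21R, IL4R lost its call without any one of the 4 libraries (adjusted p 0.119 to 0.225). IL4R was the 1 called gene among 27 tested JAK-STAT pathway components, whose median was 0.02 (3.70% lower, against 0.97% of all tested genes). JAK2 itself was at 174 and 191 CPM with fedratinib and at 165 and 159 CPM with DMSO (0.17 ± 0.05, adjusted p = 0.0875, not called). GP6, the collagen receptor of platelets, was at 24.8 and 24.5 CPM with fedratinib and at 34.6 and 32.7 CPM with DMSO (-0.45 ± 0.08, adjusted p = 0.00211).

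Of the 4 feedback inhibitors SOCS1 alone was called. SOCS1 was at 7.41 and 7.80 CPM with fedratinib and at 11.4 and 11.7 CPM with DMSO (-0.60 ± 0.16, adjusted p = 0.0426), and it lost the call without any one library (adjusted p 0.118 to 0.285). SOCS3 was at 24.3 and 24.6 CPM with fedratinib and at 33.4 and 32.1 CPM with DMSO (-0.42 ± 0.12, adjusted p = 0.0681, not called). For both genes the fedratinib libraries lay below the DMSO libraries. CISH, whose promoter is shown above, was at 41.7 and 42.2 CPM with fedratinib and at 43.7 and 51.9 CPM with DMSO (-0.19, 95% interval -0.34 to -0.04, adjusted p = 0.198). SOCS2 was at 23.5 and 23.7 CPM with fedratinib and at 25.9 and 26.9 CPM with DMSO (adjusted p = 0.358).

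Among survival and growth genes, BCL2L1, which encodes the anti-apoptotic BCL-XL, was at 198 and 197 CPM with fedratinib and at 232 and 229 CPM with DMSO (-0.22 ± 0.04, adjusted p = 0.00478). It kept the call without DMSO replicate 1 (adjusted p = 0.0385) and lost it without DMSO replicate 2, fedratinib replicate 1 or fedratinib replicate 2 (adjusted p 0.0509 to 0.0684). BCL2, a relative with the same role, was at 8.474 and 8.788 CPM with fedratinib and at 11.99 and 11.65 CPM with DMSO (-0.45 ± 0.10, adjusted p = 0.0209, and 0.104 to 0.157 with 1 library left out). Both fell by the test on all libraries, and the other 14 tested genes of the BCL2 family were not called. MCL1 was at 212 and 213 CPM with fedratinib and at 214 in both DMSO libraries, with a 95% interval of -0.10 to 0.08 on the log2 scale. MYC was at 828 and 829 CPM with fedratinib and at 917 and 915 CPM with DMSO (-0.14 ± 0.04, adjusted p = 0.0533, not called by edgeR but called by DESeq2). ID1, a repressor of differentiation factors and also a target of BMP signalling, was at 58.8 and 60.1 CPM with fedratinib and at 73.1 and 72.0 CPM with DMSO (-0.29 ± 0.07, adjusted p = 0.0396, and 0.144 to 0.229 with 1 library left out). It was the 1 called gene of 9 on the BMP-SMAD list (11.1% lower, against 0.97% of all tested genes).

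The ERK pathway is a branch that JAK2 also drives through RAS. Of 20 tested ERK output genes, 3 fell and 0 rose (15% lower, against 0.97% of all tested genes), and the list's median was -0.15. The 3 were PHLDA1 (-0.42 ± 0.11, adjusted p = 0.0426), FOSL1 (-0.38 ± 0.08, adjusted p = 0.00903) and ETV5 (-0.37 ± 0.07, adjusted p = 0.00521), and none of them kept the call with every library left out. PHLDA1 lost it in all 4 such fits (adjusted p 0.106 to 0.306). FOSL1 kept it without fedratinib replicate 1 (0.0301) and lost it without fedratinib replicate 2 (0.172), DMSO replicate 1 (0.0712) and DMSO replicate 2 (0.0616). ETV5 kept it without DMSO replicate 1 (0.0164) and lost it without the other three (0.0598 to 0.133). Neither DUSP6 nor EGR1, which ERK induces within minutes, was called. DUSP6, a phosphatase that switches ERK off, was at 11.1 and 10.4 CPM with fedratinib and at 9.57 and 10.3 CPM with DMSO (0.11, 95% interval -0.12 to 0.33, adjusted p = 0.748). EGR1, an immediate early transcription factor, was at 39.0 and 38.6 CPM with fedratinib and at 30.4 and 32.4 CPM with DMSO (0.30 ± 0.11, adjusted p = 0.192).

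Many of these genes were at lower levels with the other inhibitors at the same dose and time. Fedratinib, momelotinib and pacritinib share an anilinopyrimidine core, which pacritinib closes into a macrocycle, whereas ruxolitinib is built on a pyrrolopyrimidine. Each was set against fedratinib directly, without the DMSO libraries, in 3 comparisons that share the 2 fedratinib libraries. Against ruxolitinib, 566 genes differed (3.52% of tested genes), 341 higher with fedratinib (2.12%) and 225 lower (1.4%). The total was 210 without fedratinib replicate 2, and 209 and 331 without ruxolitinib replicates 1 and 2. Of the 22 JAK-STAT targets, 15 were higher with fedratinib than with ruxolitinib and 0 were lower, with a median difference of 0.71 on the log2 scale. On the ERK list 12 of 20 were higher and 0 lower, with a median of 0.70.

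CISH was at 41.7 and 42.2 CPM with fedratinib, against 13.8 and 14.4 CPM with ruxolitinib (difference 1.57, adjusted p = 2.68e-15). PIM1 was at 565 in both fedratinib libraries, against 190 and 200 CPM with ruxolitinib (1.53, adjusted p = 1e-19). DUSP6 was at 11.1 and 10.4 CPM with fedratinib, against 1.42 and 1.55 CPM with ruxolitinib (2.84, adjusted p = 1.75e-15). In each case the 2 ruxolitinib libraries lay far below the 2 fedratinib libraries. BCL3, the most lowered target, was still higher with fedratinib, at 13.4 and 13.3 CPM, than with ruxolitinib, at 4.96 and 4.39 CPM (1.52, adjusted p = 4.38e-08). NFKBIZ, a nuclear regulator of NF-kB that STAT3 can induce, was the 1 called gene of 19 on the NF-kB list, at 45.1 and 46.0 CPM with fedratinib and at 38.3 and 37.2 CPM with DMSO (0.27 ± 0.07, adjusted p = 0.0283, and 0.0987 to 0.290 with 1 library left out). This 1 gene is 5.26% of the list, against 0.616% of all tested genes higher. With ruxolitinib NFKBIZ was at 24.4 and 22.9 CPM, so fedratinib was higher by 0.95 (adjusted p = 1.18e-11 by edgeR). Not called in this comparison were CCND2, a cyclin (0.16, 95% interval 0.06 to 0.26, adjusted p = 0.0748), and MYC (0.02, 95% interval -0.06 to 0.10, adjusted p = 0.866).

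Against momelotinib, 226 genes differed (1.41%), 161 higher with fedratinib (1%) and 65 lower (0.404%). The total was 123 and 91 without fedratinib replicates 1 and 2, 141 without momelotinib replicate 1 and 528 without momelotinib replicate 2. Of the JAK-STAT targets 10 were higher with fedratinib and 0 lower, and of the ERK outputs 9 and 0. DUSP6 was at 11.1 and 10.4 CPM with fedratinib, against 4.18 and 4.23 CPM with momelotinib (1.34, adjusted p = 1.45e-08). PIM2 was at 144 and 147 CPM with fedratinib, against 99.4 and 93.6 CPM with momelotinib (0.59, adjusted p = 6.17e-08). PIM1 did not pass the test (0.19, 95% interval 0.08 to 0.30, adjusted p = 0.063), and nor did SOCS2 (0.04, 95% interval -0.12 to 0.20, adjusted p = 0.891). These intervals are for single genes and are not adjusted for the number of genes.

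Against pacritinib, 4610 genes differed (28.7%), 2668 higher with fedratinib (16.6%) and 1942 lower (12.1%), and the total was 2904 without fedratinib replicate 2 and 3014 without pacritinib replicate 2. Of the JAK-STAT targets 16 were higher with fedratinib and 1 lower, and of the ERK outputs 14 and 0. DUSP6 was at 11.1 and 10.4 CPM with fedratinib, against 3.64 and 3.02 CPM with pacritinib (1.68, adjusted p = 1.6e-11). The difference in PIM1 was not called (0.09, 95% interval -0.02 to 0.20, adjusted p = 0.207). HEXIM1, an inhibitor of the elongation factor P-TEFb whose RNA rises when BET proteins are blocked, was at 111 and 119 CPM with fedratinib. Its level was 1.93 higher on the log2 scale than with pacritinib (adjusted p = 6.61e-21). Against DMSO, HEXIM1 was not called with fedratinib (values below), so most of this gap is a lower level with pacritinib than with DMSO. With 28.7% of all tested genes called, a call in this comparison is common.

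**Figure D3:**
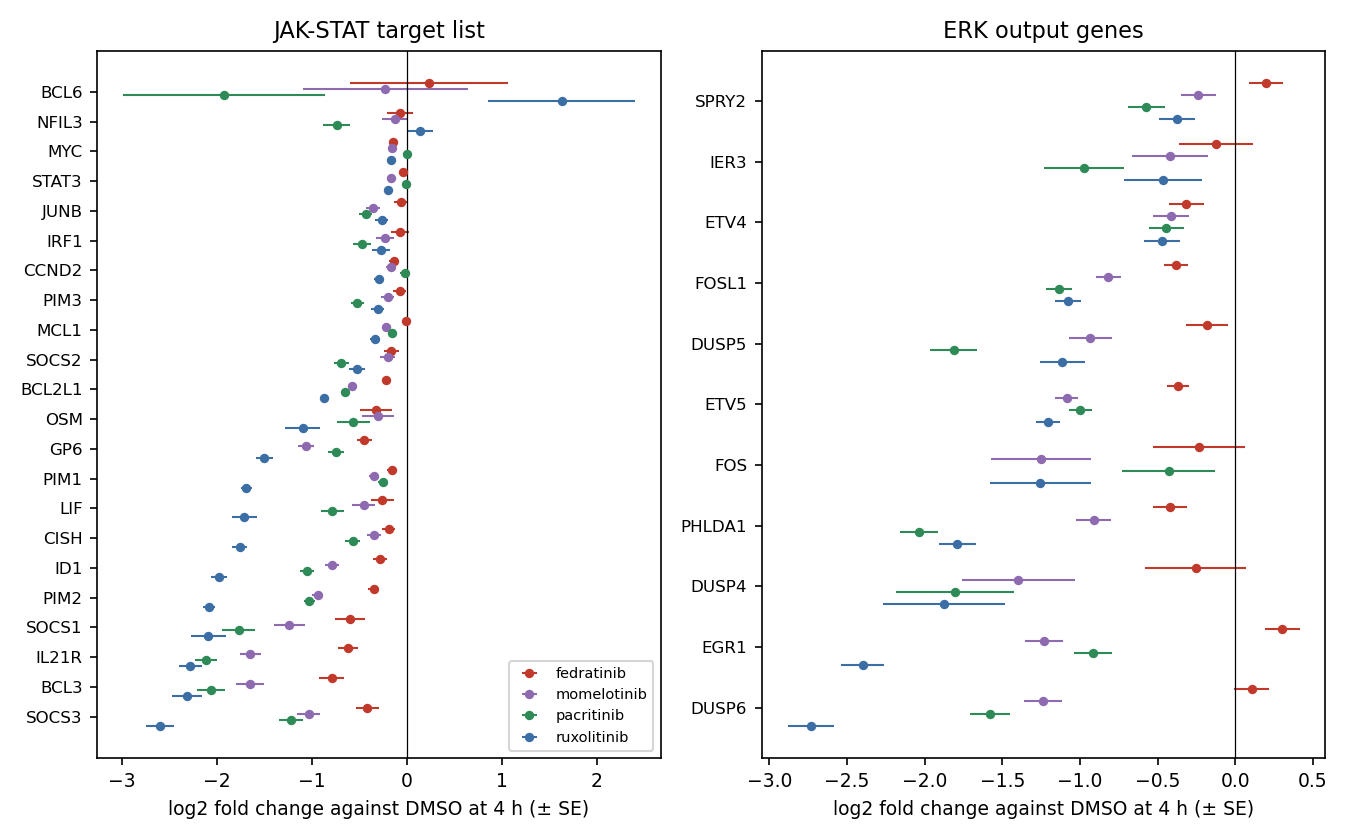
Log2 fold change against DMSO at 4 h (horizontal axis, bars are ± SE) for the 22 tested JAK-STAT targets and 11 of the 20 tested ERK output genes, with 1 colour per inhibitor. All 4 inhibitors are set against the same 2 DMSO libraries; fedratinib runs from -0.79 for BCL3 to 0.30 for EGR1, whereas ruxolitinib reaches -2.61 for SOCS3 and -2.73 for DUSP6.

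Some genes of the amino acid and stress response rose with fedratinib. Of 34 tested genes on the ATF4 list, 5 rose and 0 fell (14.7% higher, against 0.616% of all tested genes), and the list's median was 0.14. The 5 were SESN2, CTH, SLC7A11, JDP2 and PPP1R15A. SESN2 (ENSG00000130766, chromosome 1 from 28259527 to 28282491), a sestrin that restrains mTORC1, was at 64.2 and 63.5 CPM with fedratinib and at 50.2 and 46.9 CPM with DMSO (0.40 ± 0.06, adjusted p = 0.000372). It was the 1 member called with every library left out. CTH, which makes cysteine from cystathionine, was at 9.70 and 9.26 CPM with fedratinib and at 5.50 and 6.48 CPM with DMSO (0.65 ± 0.12, adjusted p = 0.00221), and was not called once DMSO replicate 1 was left out (adjusted p = 0.0567).

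SLC7A11, the cystine importer, was at 29.6 and 29.9 CPM with fedratinib and at 23.2 and 19.9 CPM with DMSO (0.47 ± 0.10, adjusted p = 0.00975). It kept the call without DMSO replicate 1 (0.0122) and lost it without DMSO replicate 2 (0.294), fedratinib replicate 1 (0.066) and fedratinib replicate 2 (0.0793). JDP2, a bZIP repressor whose promoter holds the CARE element above, was at 17.6 and 15.5 CPM with fedratinib and at 11.7 and 12.3 CPM with DMSO (0.46 ± 0.11, adjusted p = 0.0265, and 0.0556 to 0.231 with 1 library left out). PPP1R15A, a phosphatase subunit that restores translation after stress, changed by 0.19 ± 0.05 (adjusted p = 0.0492, and 0.172 to 0.289 with 1 library left out). Not called were ASNS, ATF4 and TRIB3. ASNS, asparagine synthetase, was at 21.99 and 22.07 CPM with fedratinib and at 15.46 and 18.02 CPM with DMSO (0.39 ± 0.12, adjusted p = 0.0858). ATF4 RNA changed by 0.09 (adjusted p = 0.386), and TRIB3, a pseudokinase of the same response, by -0.20 (adjusted p = 0.219). Of 20 tRNA synthetases, AARS alone was called (0.17 ± 0.05, adjusted p = 0.0464 by edgeR). That is 5% higher, against 0.616% of all tested genes. AARS lost the call with each library left out, at estimates of 0.14 to 0.20.

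SESN2 was also higher with fedratinib than with ruxolitinib (0.46, adjusted p = 6.2e-06), momelotinib (0.31, adjusted p = 0.0036) and pacritinib (0.40, adjusted p = 8.66e-06), at 64.2 and 63.5 CPM against 46.9 and 46.0 CPM with ruxolitinib, 52.9 and 50.1 CPM with momelotinib, and 49.2 and 47.7 CPM with pacritinib. Of the 34 genes on the ATF4 list, 14 were higher with fedratinib than with ruxolitinib and 0 lower (2.12 and 1.4% of all tested genes). Against momelotinib 7 were higher and 0 lower (1 and 0.404% of all tested genes). Against pacritinib 12 were higher and 3 lower (16.6 and 12.1% of all tested genes), with a median of 0.03. Against the same DMSO libraries, ruxolitinib itself had 1 gene of the list higher and 9 lower (3.42 and 5.04% of all tested genes). Its paralogue SESN3 (ENSG00000149212, chromosome 11 from 95165513 to 95232541), a target of FOXO factors, was at 26.11 and 25.03 CPM with fedratinib and at 16.43 and 15.26 CPM with DMSO (0.69 ± 0.09, adjusted p = 5.94e-05, and at most 0.00996 with 1 library left out). The difference in SESN3 between fedratinib and ruxolitinib was not called (0.18, adjusted p = 0.333). Of 19 tested FOXO targets, 2 rose and 0 fell (10.5% higher, against 0.616% of all tested genes), with a median of 0.10. The other was KLHL24, an adaptor of an E3 ubiquitin ligase, at 13.9 and 14.2 CPM with fedratinib and at 10.6 and 8.83 CPM with DMSO (0.55 ± 0.10, adjusted p = 0.00397). KLHL24 lost its call without DMSO replicate 2 (0.232) and without fedratinib replicate 2 (0.0617).

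Some genes for building ribosomes were slightly lower. Of 38 tested ribosome biogenesis genes, 8 fell and 0 rose (21.1% lower, against 0.97% of all tested genes), 36 of the 38 estimates lay below 0, and the median was -0.15. The largest were RRS1, an assembly factor of the large subunit (-0.31 ± 0.06, adjusted p = 0.00285), NIP7, another assembly factor (-0.26 ± 0.06, adjusted p = 0.0257), and POLR1B, a subunit of RNA polymerase I (-0.22 ± 0.05, adjusted p = 0.0253). RRS1 was at 75.2 and 70.6 CPM with fedratinib and at 87.9 and 92.4 CPM with DMSO. It lost its call without fedratinib replicate 2 (0.0936) and DMSO replicate 2 (0.116), and none of the 8 was called with every library left out, each such fit calling 0 to 3 genes of the list. The MYC network list, which does not include MYC itself, had 0 called genes of 14 by edgeR and 0 by DESeq2 (1 at an unadjusted p under 0.05). Over all tested genes edgeR called 1.59%, so 0 of 14 is near that share. On the ribosome biogenesis list POLR1B was the 1 gene higher with fedratinib than with ruxolitinib (0.19, adjusted p = 0.0413 by edgeR), and 0 were lower. That is 2.63% higher, against 2.12% of all tested genes.

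Protein-folding genes fell in part. HSPA8, the constitutive HSP70 chaperone and 1 of the 26, was at 2395 and 2475 CPM with fedratinib and at 2973 and 3024 CPM with DMSO (-0.30 ± 0.04, adjusted p = 0.000189). It led to a list of 20 cytosolic heat shock chaperones that was written after these values were seen, of which 5 were lower and 0 higher (0.97% of all tested genes were lower), with a median of -0.10 and 18 estimates below 0. HSPA1B, a stress-induced HSP70, was at 49.0 and 51.2 CPM with fedratinib and at 63.7 and 63.2 CPM with DMSO (-0.34 ± 0.06, adjusted p = 0.00172); its reads can also belong to its near-identical copy HSPA1A, so this value is uncertain. The co-chaperones DNAJA4 (-0.24), DNAJB1 (-0.21) and DNAJA1 (-0.17) had adjusted p of 0.0206, 0.035 and 0.0356. Of 17 genes of the unfolded protein response in the endoplasmic reticulum, 2 fell and 0 rose (11.8% lower, against the same 0.97%). They were HSPA5, the main chaperone there (-0.16 ± 0.04, adjusted p = 0.046), and SDF2L1 (-0.29 ± 0.08, adjusted p = 0.0462). HSPA5 lost its call without any one library (0.123 to 0.324), and SDF2L1 without each but DMSO replicate 1 (0.172 to 0.544).

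Some megakaryocyte genes were lower. Of 31 tested, 4 fell and 0 rose (12.9% lower, against 0.97% of all tested genes), with a median of -0.09. Besides GP6, TBXA2R, the thromboxane receptor of platelets, was at 19.98 and 21.94 CPM with fedratinib and at 31.02 and 33.28 CPM with DMSO (-0.62 ± 0.08, adjusted p = 5.26e-05, and at most 0.00683 with 1 library left out). GP1BA, a subunit of the receptor for von Willebrand factor (-0.26 ± 0.05, adjusted p = 0.00786), lost its call without fedratinib replicate 2 (0.145) and DMSO replicate 2 (0.229). THBS1, a matrix glycoprotein (-0.31 ± 0.08, adjusted p = 0.035), kept its call without fedratinib replicate 2 (0.0251) and lost it in the other fits (0.127 to 0.323). The other 27 were not called. TBXA2R was higher with fedratinib than with ruxolitinib (0.65, adjusted p = 4.79e-06). Among erythroid genes HBG2, a fetal globin, changed by -0.01 (adjusted p = 0.968); its reads may be shared with the near-identical HBG1.

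Of the known targets of fedratinib, JAK2 was called by DESeq2 but not by edgeR, and FLT3 and RET were under 1 CPM in all 4 libraries. HEXIM1, a gene that BET inhibitors raise, was at 111 and 119 CPM with fedratinib and at 102 and 104 CPM with DMSO (0.16, 95% interval 0.04 to 0.27, adjusted p = 0.184). Of 9 genes of that kind 0 were called by edgeR and 0 by DESeq2 (1 at an unadjusted p under 0.05). With 1.59% of all tested genes called by edgeR, 0 of 9 is near that share. Of 8 that BET inhibitors lower, BCL2 and FOSL1 fell and 0 rose (25% lower, against 0.97% of all tested genes). Both are also on lists described above. With ruxolitinib, momelotinib and pacritinib, 5, 5 and 4 of the 8 fell (5.04, 3.79 and 17.4% of all tested genes), and 1, 1 and 2 rose. The part of BET proteins in these falls was not tested. SLC19A2, a thiamine transporter, was not called (-0.12, 95% interval -0.32 to 0.08, adjusted p = 0.636), and SLC19A3, the transporter that fedratinib blocks, was at 0 or under 1 CPM in each library and was not tested. SLC19A1, the folate carrier of the same family and 1 of the 26, was at 235 and 233 CPM with fedratinib and at 295 and 290 CPM with DMSO (-0.32 ± 0.05, adjusted p = 0.000432 by edgeR). This fall was not particular to fedratinib. Against the same DMSO libraries SLC19A1 was also called lower with ruxolitinib (-0.26), momelotinib (-0.21) and pacritinib (-0.23). Set directly against each of them, fedratinib was not called for SLC19A1 (adjusted p = 0.605, 0.383 and 0.192 by edgeR).

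Several lists held 0 called genes by edgeR. These were 25 interferon-stimulated genes, 31 of DNA replication, 30 of mitosis, 30 of lysosome and autophagy, 10 of fatty acid synthesis and 13 messenger RNAs encoded by mitochondria. Their medians lay between -0.04 and 0.04. At an unadjusted p under 0.05 the numbers were 1, 1, 4, 4, 0 and 0 in that order, and DESeq2 called 0 in each of the 6 lists. Over all tested genes edgeR called 1.59%, and 2224 of 16076 had an unadjusted p under 0.05. With so few genes called, 0 calls in a list of this size is common and says little about these lists. Of 24 cholesterol synthesis genes, DHCR7, the last enzyme of the pathway, was lower (-0.26 ± 0.06, adjusted p = 0.0306 by edgeR). That is 4.17% lower, against 0.97% of all tested genes. DHCR7 lost the call with each library left out, at estimates of -0.24 to -0.29. Of 20 p53 targets, AEN, an exonuclease, was lower (-0.29 ± 0.05, adjusted p = 0.00285 by edgeR). That is 5% lower, against the same 0.97%. AEN lost its call without fedratinib replicate 2 (-0.28) and without DMSO replicate 2 (-0.29).

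Some structural RNAs, whose share moves with RNA quality and how a library is made, were also higher with fedratinib. Of 8 tested, 6 rose and 0 fell (75% higher, against 0.616% of all tested genes), with a median of 0.40. Against the same DMSO libraries, 7 rose with ruxolitinib, 8 with momelotinib and 7 with pacritinib, and 0 fell with each. The shares of all tested genes higher were 3.42, 2.21 and 13.1%. Set directly against ruxolitinib or momelotinib, fedratinib had 0 of the 8 higher and 0 lower, and against pacritinib 2 higher and 4 lower. DESeq2 called 3 of the 8, and edgeR called 3 to 5 with 1 library left out. MT-RNR1 (ENSG00000211459, mitochondrial genome from 648 to 1601), the small ribosomal RNA of mitochondria, was at 186 and 103 CPM with fedratinib and at 56.9 and 17.2 CPM with DMSO (2.00 ± 0.30, adjusted p = 0.000233). The estimate was 1.34 without DMSO replicate 2 and 3.06 without DMSO replicate 1. MT-RNR2, the large one, was at 320 and 201 CPM with fedratinib and at 124 and 53.6 CPM with DMSO (1.57 ± 0.24). DMSO replicate 2 was the lowest of the 4 libraries for both, and the replicates of each group differed from each other by more than 1.5-fold. Together the 2 RNAs took 0.0504 and 0.0311% of reads with fedratinib and 0.0181 and 0.00715% with DMSO. The share in DMSO replicate 2 was the lowest of all 24 libraries. Copies of RN7SL, which guides secreted proteins to the endoplasmic reticulum, took 3.33 and 2.80% of reads with fedratinib and 2.42 and 2.52% with DMSO. The part of these RNAs in the other changes was not tested; without the 2793 entries of such classes in the table, 257 genes were called, 245 of them also among the 255.

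The genes that rose had longer transcripts and a lower GC content than those that fell. The 87 protein-coding genes higher with fedratinib had a median longest annotated transcript of 7576 bases, the 154 lower ones 3484.5 bases, and all 14104 tested protein-coding genes with a length 3592.5 bases. The median GC content of these transcripts was 44.0% in the higher genes, 55.5% in the lower genes and 48.8% in all. Of 571 genes with a transcript over 10 kb, 31 were higher (5.43%, against 0.616% of all tested genes) and 0 lower, and their median log2 fold change was 0.09. In that class the median deviation from the mean of the 4 libraries was 0.03 and 0.05 with fedratinib, and 0.02 and -0.10 with DMSO. DMSO replicate 2 thus stood apart there. Under 2 kb it was fedratinib replicate 2, at -0.040, against 0.015 for fedratinib replicate 1 and 0.020 and 0.016 for DMSO. Over 10 kb, the median log2 fold change against the same DMSO libraries was 0.016 with ruxolitinib, 0.019 with momelotinib and 0.033 with pacritinib. For fedratinib against DMSO at 48 h, the median over 10 kb was -0.064. FAT4, an atypical cadherin with such a transcript, was at 10.5 and 11.1 CPM with fedratinib and at 7.88 and 6.93 CPM with DMSO (0.55 ± 0.13, adjusted p = 0.0206), and it was not called without DMSO replicate 2 (0.323), fedratinib replicate 1 (0.0761) or fedratinib replicate 2 (0.182). NEAT1, a long nuclear RNA, was at 278 and 273 CPM with fedratinib and at 196 and 165 CPM with DMSO (0.61 ± 0.14, adjusted p = 0.0155); it kept the call without DMSO replicate 1 (0.019) and not without the others (0.0671 to 0.290). The part of transcript length or of DMSO replicate 2 in the calls was not tested. Without DMSO replicate 2, 13 genes were called higher and 26 lower.

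**Figure D4:**
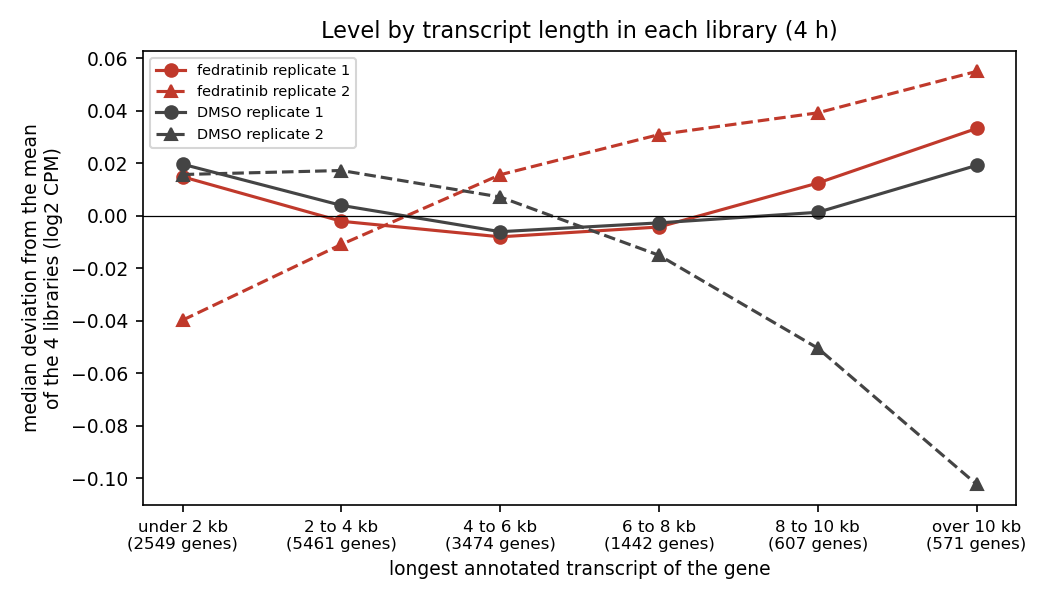
Median deviation of each library from the mean of the 4 libraries, in log2 CPM (vertical axis), for protein-coding genes in 6 classes by longest transcript (horizontal axis, gene numbers in brackets). Red lines are fedratinib and dark lines DMSO; over 10 kb the points are at 0.03 and 0.05 for fedratinib and at 0.02 and -0.10 for DMSO replicates 1 and 2.

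The early pattern was then set beside the later time. At 48 h, 1238 genes differed between fedratinib and DMSO (7.7%), in libraries other than those used at 4 h. Of the 99 genes higher at 4 h, 16 were called higher and 4 lower at 48 h (background 3.66% and 4.04%). Of the 156 genes lower at 4 h, 27 were called lower and 11 higher at 48 h. Of the 22 JAK-STAT targets, 2 were higher and 1 lower at 48 h, with a median of 0.01, against 0 higher and 7 lower at 4 h with a median of -0.18. On the ATF4 list 21 of 34 were higher and 0 lower at 48 h, with a median of 0.30, against 5 higher and 0 lower at 4 h with a median of 0.14. On the ribosome biogenesis list 2 of 38 were higher and 1 lower at 48 h, against 0 higher and 8 lower at 4 h.

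The difference between the times was tested gene by gene as an interaction, in which 662 genes were called (4.12%), 321 with a higher effect at 48 h (2%) and 341 with a lower one (2.12%). The total was 221 without fedratinib replicate 1, and 418 and 275 without DMSO replicates 1 and 2, of 48 h; it was 266 without fedratinib replicate 2 and 304 without DMSO replicate 2 of 4 h. Genes named for a large change at 4 h enter this test with the same 4 h values, so a smaller effect at 48 h is partly built in for them. PIM2 was at 183 and 180 CPM with fedratinib and at 156 in both DMSO libraries at 48 h, so its effect was 0.22 at 48 h and -0.35 at 4 h (difference 0.57, adjusted p = 6.48e-05). GP6 was at 38.4 and 39.8 CPM with fedratinib and at 32.8 and 33.3 CPM with DMSO at 48 h, with effects of 0.24 at 48 h and -0.45 at 4 h (0.69, adjusted p = 0.000373). Both genes were below DMSO at 4 h and above it at 48 h. BCL3 was at 10.8 and 9.82 CPM with fedratinib and at 16.5 and 15.3 CPM with DMSO at 48 h (-0.62, adjusted p = 0.00523), and the difference between the times was not called (0.17, adjusted p = 0.719).

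SESN3 was at 14.7 and 17.9 CPM with fedratinib and at 16.1 and 17.2 CPM with DMSO at 48 h, so that its effect was -0.03 at 48 h and 0.69 at 4 h (difference -0.72, adjusted p = 0.00125). SESN2 was called at both times (0.31 at 48 h and 0.40 at 4 h), and the difference was not called (-0.09, adjusted p = 0.691). ASNS was at 26.6 and 24.4 CPM with fedratinib and at 13.9 and 12.5 CPM with DMSO at 48 h (0.95, adjusted p = 3.07e-06), against 0.39 at 4 h (difference 0.56, adjusted p = 0.0559). EGR1 was at 46.2 and 39.7 CPM with fedratinib and at 22.6 and 21.4 CPM with DMSO at 48 h, with effects of 0.96 at 48 h and 0.30 at 4 h (difference 0.66, adjusted p = 0.0158). The mitochondrial ribosomal RNAs ran the other way at 48 h, with MT-RNR1 at 116 and 149 CPM with fedratinib and at 223 and 338 CPM with DMSO (difference between the times -3.08, adjusted p = 1.72e-05).

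**Figure D5:**
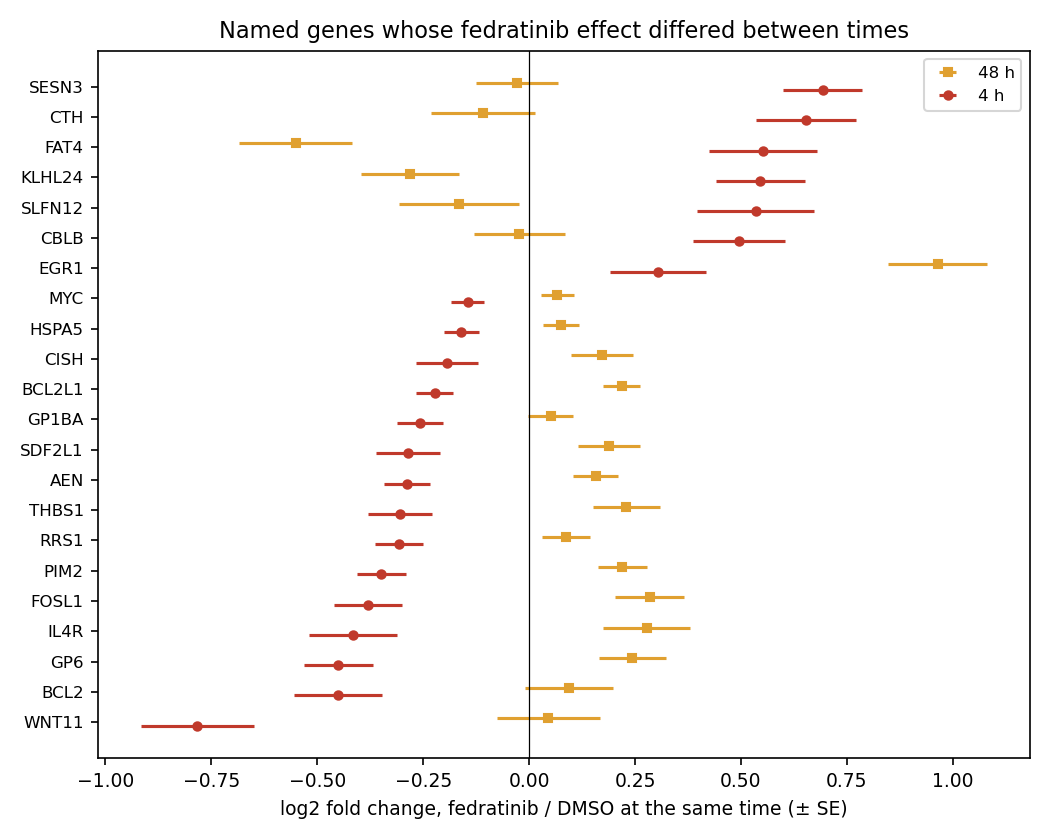
Log2 fold change, fedratinib over DMSO at the same time (horizontal axis, bars are ± SE), at 48 h (yellow squares) and 4 h (red circles) for the 22 named genes other than the mitochondrial ribosomal RNAs whose effect differed between the times. SESN3 is at -0.03 at 48 h and 0.69 at 4 h, and PIM2 at 0.22 at 48 h and -0.35 at 4 h; EGR1 is the 1 gene further from 0 at 48 h on the same side.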

How the data were processed

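RNA from 24 libraries of HEL cells was sequenced. The tools named are bcl2fastq, STAR 2.5.1a and edgeR, and the genome build is GRCh38, per the submitters' processing notes. The authors deposited 1 table of raw read counts per gene. Which counter, annotation and strand setting were used is not given in the sources used here, so overlapping, antisense and near-identical genes may share reads. Of 34343 entries, 130 repeated an identifier, leaving 34213 genes. Symbols came from the deposited table, coordinates and transcript lengths from GENCODE 29 (GRCh38), and promoters from RefSeq.

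Counts were tested with edgeR 4.0.16 (limma 3.58.1, R 4.3.3) after filterByExpr (16076 genes) and TMM scaling, by a quasi-likelihood fit with 1 mean per group to all 24 libraries (12 residual and a median of 19.4 prior degrees of freedom, common biological coefficient of variation 0.0468). P-values were adjusted by Benjamini and Hochberg over all tested genes, and an adjusted p under 0.05 was called. CPM were scaled by TMM, except the marker levels, which were scaled by library size. The SE was the absolute log2 fold change over the square root of F. The code was tested on simulated data.

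Genes could be named from a panel of 30, as 1 of the 12 largest called changes per direction (mean log2 CPM 3 or more, groups not overlapping), or among the 5 called list members with the smallest p; others are said to be chosen later. The panel, lists and comparisons were chosen with earlier results of these data known. Alternatives were DESeq2 1.42.0, RLE scaling, no low-count filter, 1 CPM in 6 libraries, the 4 h libraries only, the 4 libraries only, the replicate number as a block, structural RNA left out, and leaving out each library in turn. The 2 libraries of a group were not duplicates (chi-square per degree of freedom 10.5 for fedratinib and 8.61 for DMSO). Counts limit precision for genes at few reads. Results for some genes of the lists are not reported here.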

Additional observations from a re-analysis of the deposited data

Results flagged for a closer look

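These genes were flagged because the effect of fedratinib against DMSO differed between 48 h and 4 h by the interaction test. The differences below are log2 fold changes at 48 h minus those at 4 h, and most of these genes were named for their change at 4 h, whose values enter the test. The effect was lower at 48 h for the mitochondrial ribosomal RNAs MT-RNR1 (-3.08) and MT-RNR2 (-2.34), for the cadherin FAT4 (-1.10), for the FOXO targets KLHL24 (-0.83) and SESN3 (-0.72), for CTH of cysteine synthesis (-0.76), and for SLFN12 (-0.70) and CBLB (-0.52), a ubiquitin ligase. It was higher at 48 h for the JAK-STAT targets GP6 (0.69), PIM2 (0.57), BCL2L1 (0.44), CISH (0.37) and MYC (0.21). The same held for the receptor IL4R (0.69), for WNT11 (0.83), for the ERK outputs EGR1 (0.66) and FOSL1 (0.66), and for BCL2 (0.54). It was also higher for the platelet genes THBS1 (0.53) and GP1BA (0.31), the chaperone genes SDF2L1 (0.47) and HSPA5 (0.23), AEN (0.45) and RRS1 (0.39).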

How the results depend on the processing

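The number of genes called for fedratinib against DMSO at 4 h, 255, became 391 with DESeq2, 416 with no low-count filter and 110 with the 4 h libraries only, and 39 to 154 with each library left out. The 99 higher genes became 215 with no filter, 32 with the 4 h libraries only and 13 to 87 with a library left out. The 156 lower genes became 254 with DESeq2, 78 with the 4 h libraries only and 26 to 67. Fedratinib minus momelotinib gave 383 genes with no filter, 136 with the 4 h libraries only and 91 (without fedratinib replicate 2) to 528 (without momelotinib replicate 2). With a library left out, fedratinib minus ruxolitinib gave 209 to 418 genes, fedratinib minus pacritinib 2904 to 3776, and the difference between the times 221 to 701. Fits with a lone library in a group assume that it varies like the other groups. HBG2, at -0.01, reversed to 0.05 without fedratinib replicate 2 and 0.02 without DMSO replicate 1, in a range of -0.080 to 0.053 with each library left out. Of 54 named called genes, 54 kept the call with the stricter filter, 52 with RLE scaling, 49 with DESeq2 and 35 with the 4 h libraries only, but 28 without DMSO replicate 1, 21 without fedratinib replicate 1, 17 without fedratinib replicate 2 and 15 without DMSO replicate 2.

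Over all tested genes, same-numbered replicates did not deviate together (r = 0.041 between fedratinib and DMSO, and 0 of 66 pairs of groups over 0.1). Noise in genes with few reads lowers such a correlation, so it cannot exclude that the numbers pair the samples. With the replicate number as a block, more genes were called in each comparison than without it. The numbers were 333 for fedratinib against DMSO, 672 against ruxolitinib, 289 against momelotinib, 4775 against pacritinib and 831 between the times. At unadjusted p under 0.05, 2224 genes differed from DMSO.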
